A study of Homo sapiens with 16 samples.

Results

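The genes described are REST and 9 neuronal genes, RBFOX1, ELAVL3, BEX1, BEX2, STMN2, SNAP25, VGF, GRIK3 and BRINP1, picked by gene symbol out of 39249 genes in the deposited tables. All 10 were found, each in 1 row, and 9 of them passed the filter on low counts. STMN2 did not. The 10 genes were picked with earlier results of these data known, so their own levels and differences are given as a description and without a test.

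RNA with poly(A) tails was sequenced from cells of A673, a line established from a Ewing sarcoma, and from 3 monoclonal knockout lines made from it, in which MRPL45 (a mitochondrial ribosomal protein), CYC1 or UQCRFS1 (both subunits of respiratory complex III) was targeted. Every line received 500 nM SP-2509 or its solvent, DMSO at 0.1%, for 48 h, and each of the 8 combinations has 2 libraries. The 8 groups were MRPL45 knockout with SP-2509 and with DMSO, CYC1 knockout with SP-2509 and with DMSO, UQCRFS1 knockout with SP-2509 and with DMSO, and A673 with SP-2509 and with DMSO. Each knockout line is 1 clone, so a difference from A673 can belong to the clone as much as to the targeted gene, and these cannot be told apart. SP-2509 is an inhibitor of the histone demethylase LSD1, which the gene KDM1A encodes. No label says that libraries of a group came from separate cultures, so errors and p-values measure the spread between these libraries only, which may be technical.

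REST is a zinc finger repressor that binds a DNA element called RE1 beside many neuronal genes and keeps them low in cells that are not neurons. One end of the protein recruits SIN3, the other recruits CoREST proteins (RCOR1, RCOR2 and RCOR3), and these hold LSD1 and the histone deacetylases HDAC1 and HDAC2. The SP-2509 comparison therefore describes what neuronal genes of this kind do in a sarcoma cell given an inhibitor of the demethylase of that complex. Inhibition of LSD1 was not measured in these data, and the part of other actions of the compound was not tested. Only transcript counts were analysed here, so nothing is said of REST or CoREST occupancy at any gene.

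Library totals ran from 24873597 to 56171036 counts, and levels are given as CPM, counts scaled to a common library size after TMM scaling. The targeted transcripts were low in their own lines, with CYC1 at 71.1 to 82.2 CPM in the CYC1 knockout line against 258.5 to 307.9 CPM in the other libraries, and UQCRFS1 at 58.6 to 88.2 CPM in its knockout line against 88.6 to 118.7 CPM elsewhere. The MRPL45 transcript was not analysed here, so that label was not checked. All 8 Ewing sarcoma markers were expressed in every library, with CD99 between 573 and 967 CPM. Of 8 neuronal markers, the summed level was 263 to 279 CPM with SP-2509 and 115 to 123 CPM with DMSO in A673, most of it from SYT1, while DCX stayed between 0 and 0.288 CPM in all libraries. The same sum was 168 to 180 CPM with SP-2509 and 134 to 146 CPM with DMSO in the MRPL45 knockout line, 238 to 240 and 162 to 167 CPM in the CYC1 line, and 251 to 253 and 108 to 109 CPM in the UQCRFS1 knockout line. Summed glial markers stood at or below 1.58 CPM and summed haematopoietic markers at or below 0.462 CPM. The 4 fibroblast or mesenchymal markers summed to 482 to 484 CPM with SP-2509 and 702 to 857 CPM with DMSO in A673, and to 334 to 342 CPM with SP-2509 and 864 to 962 CPM with DMSO in the UQCRFS1 line. Their sum was 504 to 516 CPM with SP-2509 and 715 to 748 CPM with DMSO in the CYC1 line, and 1430 to 1510 CPM with SP-2509 and 1290 to 1460 CPM with DMSO in the MRPL45 line. The part of other cell types in the results was not tested. In bulk RNA, fewer cells expressing a gene and less RNA per cell cannot be told apart.

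The sequences that follow show how close the promoters of these genes come to the RE1 core, which is CAGCACC, 2 free bases and GGACAG. RefSeq promoter windows (from upstream to just past a gene's start, build GRCh38.p14) were held for 7 of the 10 genes, in 12 windows. ELAVL3, STMN2 and SNAP25 had none in the table. With both strands searched, the exact core was in 18 of 35116 promoter windows (0.051%) and in none of the 12. At 1 mismatch or fewer in the 13 fixed letters it was in 79 windows (0.225%), and among the 10 genes VGF alone had such a match, at chr7:101165555-101165581 on the strand opposite to the gene. The substitution is C7G, counted from 1 at the 5′ end of the core, with the core's base first. Capitals mark the 15 bases of the core, and the other lines are exact cores found in GENCODE 29 transcripts of 3 textbook REST targets, for comparison.
VGF: cggcttCAGCACGCTGGACAGcgcccg
BDNF: tccattCAGCACCTTGGACAGagccaa
SYT4: tcccttCAGCACCTCGGACAGaacacg
CHRNB2: cggcttCAGCACCACGGACAGcgcccc

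The left part of the core, CAGCACC, was in 7.751% of all promoter windows and in 1 of the 12. The right part with 1 more base, GGACAGC, was in 6.029% of all windows and in 3 of the 12. The third of these right parts is the one inside the VGF stretch above. The stretches of RBFOX1 and REST are shown because their windows held a part without the rest of the core beside it. Capitals mark the part, which lay on the strand of the gene in each line. The RBFOX1 stretches lie at chr16:6019491-6019515 and chr16:6019628-6019652, and the REST stretch lies at chr4:56908731-56908755.
RBFOX1, left part: gccccccagCAGCACCcgcggtggg
RBFOX1, right part: atctggaggGGACAGCcagccgtgg
REST, right part: tgcggggctGGACAGCgatttctgc

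The exact core was also looked for along whole transcripts. It was in 71 of 19702 genes with a protein-coding transcript (0.36%), and in 111 of 58721 genes with any transcript (0.189%). It was found in 0 of the 10 genes and in 9 of 47 further genes listed as RE1 targets (19.149%). These were BDNF, CDK5R2, CHRNB2, GRIN1, NPPA, POU4F3, SCN3B, SLC12A5 and SYT4. Whether the counts of 0 and 9 cover STMN2, STMN4, NEFM and CRH was not established, so they are minimum counts. The shares may rest on different sets of transcripts and were not compared. That list was drawn from general knowledge of REST, with earlier results of these data known. A match describes letters and is no evidence of a bound site, and a missing match says only that these letters are not in the stretch searched.

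With SP-2509, the libraries of 9 of the 10 genes lay above those of DMSO without overlap in A673, and STMN2 overlapped. In the UQCRFS1 knockout line all 10 lay above, STMN2 on 4 counts against 0. In the CYC1 knockout line 7 lay above, SNAP25 lay below, and STMN2 and BRINP1 overlapped. In the MRPL45 knockout line 7 lay above, and REST, STMN2 and SNAP25 overlapped. Over all 21633 genes tested, 39.1% lay above and 38.8% below without overlap in A673, 38.1% and 36.6% in the UQCRFS1 line, 34.2% and 30.8% in the CYC1 line, and 27.3% and 26.2% in the MRPL45 line. Since the genes were picked from these contrasts, nothing is read from the counts. The sizes differed widely between genes and lines, as the plot of log2 fold changes shows.

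**Figure D1:**
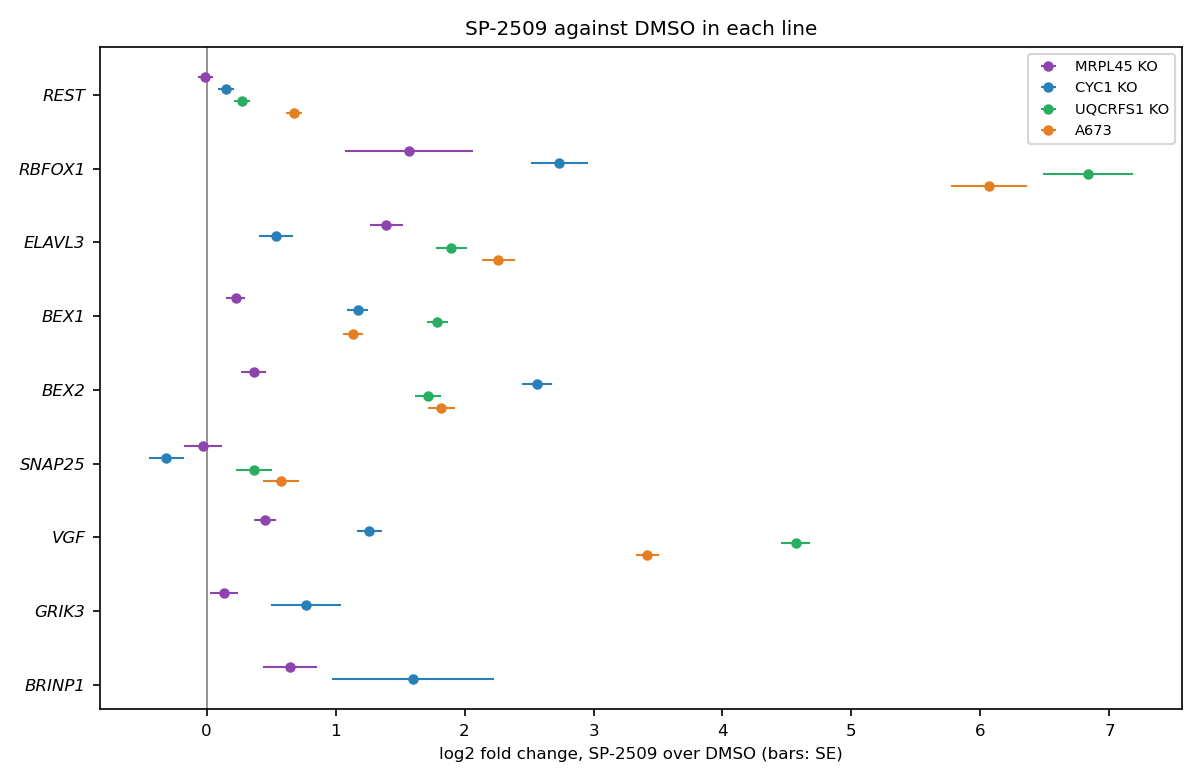
Log2 fold change of SP-2509 over DMSO for 9 genes (rows) in the 4 lines (colours), on the horizontal axis, with SE bars from the fit over all 16 libraries. VGF and RBFOX1 stand farthest to the right in the UQCRFS1 knockout line and A673, while every point of the MRPL45 knockout line lies between -0.03 and 1.57. No point is drawn where a group held 3 counts or fewer (GRIK3 and BRINP1 in A673 and the UQCRFS1 line), and STMN2 was below the filter.

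REST itself was expressed in every library, from 52.8 to 96.4 CPM. With SP-2509 its 2 libraries stood at 85.8 and 92.6 CPM in A673, against 53.0 and 58.5 CPM with DMSO, a log2 fold change of 0.68 ± 0.06 (SE, n = 2 libraries per group, as throughout). In the UQCRFS1 knockout line it stood at 64.2 and 65.9 CPM with SP-2509, against 52.8 and 54.8 CPM with DMSO (0.27 ± 0.06, and 0.14 with upper-quartile scaling). CYC1 knockout cells had 83.5 and 85.0 CPM with SP-2509, against 75.3 and 76.5 CPM with DMSO (0.15 ± 0.06). The repressor's transcript was thus higher with SP-2509 in these 3 lines, without overlap of libraries. In the MRPL45 knockout line the 2 treatments overlapped, at 90.9 and 95.3 CPM with SP-2509 and 91.0 and 96.4 CPM with DMSO (-0.01 ± 0.06).

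Without inhibitor, REST was higher in the MRPL45 knockout line than in A673 (0.75 ± 0.06) and in the CYC1 knockout line than in A673 (0.45 ± 0.06), and it overlapped with A673 in the UQCRFS1 line (-0.05 ± 0.06). In the order of the 8 group means, MRPL45 knockout with DMSO (93.7 ± 3.76 CPM, SD) and with SP-2509 (93.1 ± 3.10) and A673 with SP-2509 (89.2 ± 4.87) came first and overlapped in turn. Then came CYC1 knockout with SP-2509 (84.2 ± 1.00), CYC1 knockout with DMSO (75.9 ± 0.865) and UQCRFS1 knockout with SP-2509 (65.0 ± 1.21), each separated from its neighbours. A673 with DMSO (55.7 ± 3.89) and UQCRFS1 knockout with DMSO (53.8 ± 1.42) were lowest and overlapped. The whole span was 1.74-fold, which is narrow beside the 65.6-fold span of VGF and the 203-fold span of RBFOX1.

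**Figure D2:**
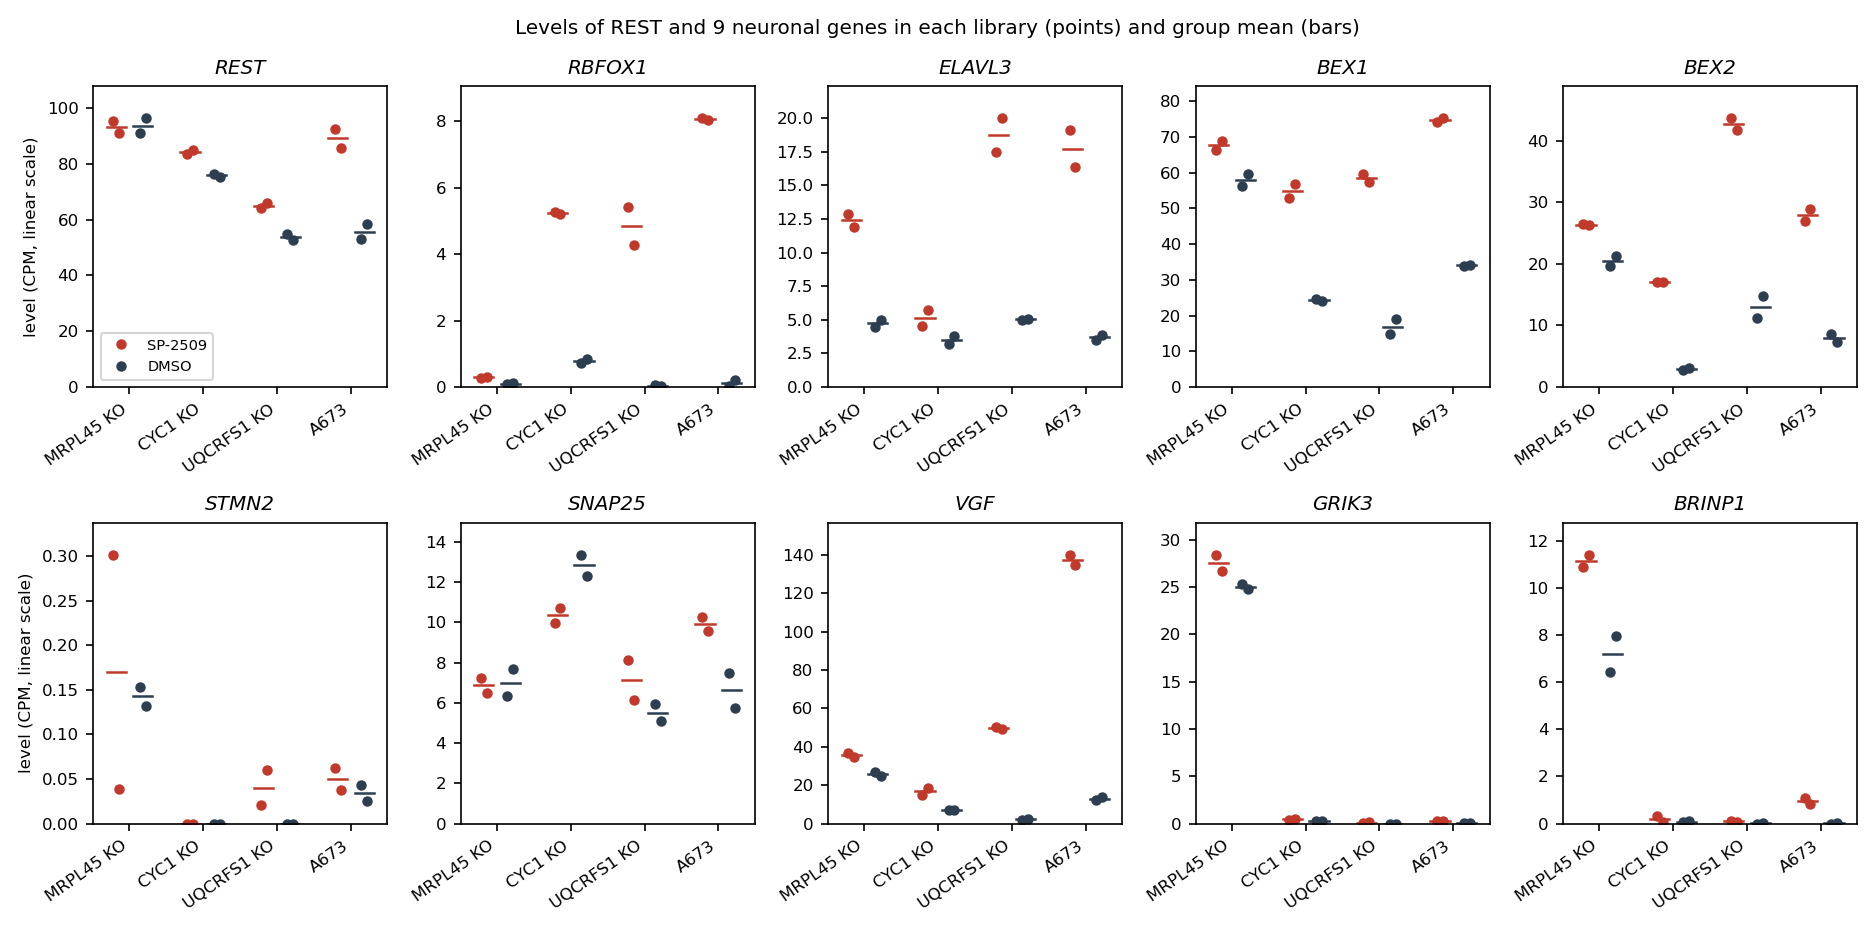
Level of each gene in CPM (vertical axis, linear, from 0, with its own scale per panel) in the 2 libraries (points) and their mean (short lines) for the 4 lines, SP-2509 in red left of DMSO in dark blue. GRIK3 and BRINP1 stand out in the MRPL45 knockout line, RBFOX1 is below 1 CPM in the DMSO libraries and in both groups of the MRPL45 line, and REST spans 52.8 to 96.4 CPM.

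RBFOX1 and ELAVL3 encode RNA-binding proteins of neurons. RBFOX1 controls alternative splicing, and ELAVL3 belongs to the Hu family, which stabilises transcripts and guides their splicing. RBFOX1 had 8.04 and 8.09 CPM with SP-2509 in A673, against 0.0433 and 0.205 CPM with DMSO (6.06 ± 0.29). In the UQCRFS1 knockout line it had 4.28 and 5.41 CPM with SP-2509, against 0.0200 and 0.0593 CPM with DMSO, which was 4 counts in all (6.83 ± 0.35). In both lines RBFOX1 was close to undetected with DMSO. CYC1 knockout cells had 5.204 and 5.258 CPM with SP-2509, against 0.713 and 0.855 CPM with DMSO (2.74 ± 0.22). With the MRPL45 knockout, RBFOX1 stayed low in both groups, at 0.264 and 0.312 CPM with SP-2509 and 0.0768 and 0.132 CPM with DMSO (1.57 ± 0.49, on 23 and 8 counts). RBFOX1 was therefore present at over 4 CPM with SP-2509 in A673, the UQCRFS1 line and the CYC1 line, and under 1 CPM in the other 5 groups.

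ELAVL3 was above 3 CPM in all 16 libraries. With SP-2509 it stood at 16.3 and 19.1 CPM in A673, against 3.53 and 3.86 CPM with DMSO (2.26 ± 0.13), and at 17.46 and 19.99 CPM in the UQCRFS1 knockout line, against 4.98 and 5.07 CPM with DMSO (1.90 ± 0.12). The MRPL45 knockout line had 11.9 and 12.9 CPM with SP-2509, against 4.45 and 5.02 CPM with DMSO (1.39 ± 0.13). Of the genes described here, ELAVL3 was 1 of 2, with RBFOX1, whose change in that line exceeded 1 on the log2 scale. The CYC1 knockout line gave the smallest difference, with 4.52 and 5.71 CPM for SP-2509 and 3.22 and 3.83 CPM for DMSO (0.54 ± 0.13, and 0.34 without the second CYC1 SP-2509 library). Its SP-2509 level overlapped with the DMSO level of the UQCRFS1 line. Among DMSO groups the level lay within 3.22 and 5.07 CPM.

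BEX1 and BEX2 are small adaptor proteins of the brain-expressed X-linked family that take part in neurotrophin receptor signalling. The genes are close copies of each other, so how reads were divided between them is uncertain. BEX1 stood at 74.3 and 75.2 CPM with SP-2509 in A673, against 34.0 and 34.2 CPM with DMSO (1.13 ± 0.08). It was 57.4 and 59.5 CPM with SP-2509 in the UQCRFS1 knockout line, against 14.7 and 19.1 CPM with DMSO (1.79 ± 0.08), and 52.8 and 56.9 CPM in the CYC1 knockout line, against 24.0 and 24.7 CPM with DMSO (1.17 ± 0.08). With SP-2509 the 4 lines thus lay within 52.8 and 75.2 CPM, and the DMSO libraries within 14.7 and 59.7 CPM. The upper end of the DMSO range was the MRPL45 knockout line, which had 66.4 and 68.9 CPM with SP-2509 and 56.2 and 59.7 CPM with DMSO (0.23 ± 0.08).

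BEX2 stood at 26.93 and 28.99 CPM with SP-2509 in A673, against 7.24 and 8.55 CPM with DMSO (1.82 ± 0.10). UQCRFS1 knockout cells had 41.8 and 43.7 CPM with SP-2509, against 11.2 and 14.8 CPM with DMSO (1.72 ± 0.10). In the CYC1 knockout line the level was 17.0 and 17.1 CPM with SP-2509, against 2.74 and 3.04 CPM with DMSO (2.56 ± 0.12), which came from the lowest DMSO level of the 4 lines. The MRPL45 knockout line again had the highest DMSO level, with 26.3 and 26.4 CPM for SP-2509 and 19.7 and 21.3 CPM for DMSO (0.36 ± 0.10). All 8 groups of BEX2 were separated from their neighbours in the order of levels.

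SNAP25, VGF and STMN2 are genes of vesicle release and of growing axons. SNAP25 is a SNARE protein that fuses synaptic vesicles with the membrane, VGF is the precursor of secreted neuropeptides, and STMN2 binds tubulin in growth cones. VGF had 135.1 and 140.2 CPM with SP-2509 in A673, against 12.1 and 13.7 CPM with DMSO (3.42 ± 0.09, or 10.7-fold). In the UQCRFS1 knockout line it had 49.2 and 50.5 CPM with SP-2509, against 1.94 and 2.26 CPM with DMSO (4.57 ± 0.11, or 23.7-fold). CYC1 knockout cells had 14.8 and 18.7 CPM with SP-2509, against 6.91 and 7.02 CPM with DMSO (1.26 ± 0.10). With the MRPL45 knockout, VGF stood at 34.5 and 36.8 CPM with SP-2509, against 24.82 and 27.01 CPM with DMSO (0.45 ± 0.09). No neighbours overlapped in the order of the 8 groups, in which A673 with SP-2509 was highest and the UQCRFS1 line with DMSO lowest. The promoter window of VGF was the one with the near match to the RE1 core printed above.

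SNAP25 did not follow VGF. Its libraries stood at 9.58 and 10.3 CPM with SP-2509 in A673, against 5.76 and 7.51 CPM with DMSO (0.57 ± 0.14, or 0.37 without the second A673 DMSO library). In the UQCRFS1 knockout line they stood at 6.13 and 8.13 CPM with SP-2509, against 5.09 and 5.94 CPM with DMSO (0.37 ± 0.14, and 0.16 without the first UQCRFS1 SP-2509 library). In the CYC1 knockout line the direction was the other one, with 9.96 and 10.7 CPM for SP-2509 and 12.3 and 13.4 CPM for DMSO (-0.31 ± 0.13). The MRPL45 knockout line overlapped, at 6.51 and 7.24 CPM with SP-2509 and 6.33 and 7.69 CPM with DMSO (-0.03 ± 0.14). The highest SNAP25 level of all was in CYC1 knockout cells with DMSO, and the 5 lowest group means, from 5.52 to 7.13 CPM, overlapped in turn.

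STMN2 had 34 counts over all 16 libraries together. The MRPL45 knockout line held 10 counts with SP-2509 and 12 with DMSO, A673 held 5 with SP-2509 and 3 with DMSO, and the UQCRFS1 line held 4 with SP-2509 and 0 with DMSO. The CYC1 line held 0 with either. In A673 the ratio of SP-2509 to DMSO was 1.41, with a 95% interval of 0.274 to 9.05 that covers counting error only. A difference in STMN2 with SP-2509 was not detectable at this depth.

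GRIK3, a kainate-type glutamate receptor subunit, and BRINP1, a protein of the nervous system that slows cell cycle entry when overexpressed, had their highest levels in the same line. Both were above 6 CPM in every library of the MRPL45 knockout line and at or below 1.07 CPM in all other libraries. GRIK3 stood at 26.7 and 28.4 CPM with SP-2509 and at 24.8 and 25.3 CPM with DMSO in that line (0.14 ± 0.11). In the other 6 groups its libraries lay between 0 and 0.483 CPM. With DMSO, the MRPL45 knockout line held 2069 counts against 2 in A673, a ratio of 1070 with a 95% counting interval of 296 to 8840.

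In A673 GRIK3 had 26 counts with SP-2509 and 2 with DMSO, a ratio of 11 (95% counting interval 2.75 to 95.4). UQCRFS1 knockout cells had 10 counts with SP-2509 and 0 with DMSO, at least 3.38-fold higher against a floor of 3 counts over the group. The CYC1 knockout line had 42 counts with SP-2509 and 23 with DMSO (0.77 ± 0.27). The highest group mean outside the MRPL45 knockout line was 0.435 CPM, in CYC1 knockout cells with SP-2509.

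BRINP1 stood at 10.9 and 11.4 CPM with SP-2509 and at 6.43 and 7.96 CPM with DMSO in the MRPL45 knockout line (0.64 ± 0.21). With DMSO that line held 576 counts against 1 in A673, a ratio of 596 (95% counting interval 107 to 23600). A673 with SP-2509 held 95 counts, 0.819 and 1.07 CPM, against 1 count with DMSO, a ratio of 80.1 (95% counting interval 14 to 3200). UQCRFS1 knockout cells held 10 counts with SP-2509 and 1 with DMSO, a ratio of 10.1 (95% counting interval 1.44 to 440). In the CYC1 knockout line the libraries overlapped, with 20 counts for SP-2509 and 6 for DMSO. A673 with SP-2509 was thus the third highest group of BRINP1 and separated from the fourth.

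With DMSO, the knockout lines differed from A673 in different genes. In the MRPL45 knockout line 8 of the 10 genes lay above A673 without overlap, and RBFOX1 and SNAP25 overlapped. The CYC1 knockout line had 5 above (REST, RBFOX1, SNAP25, GRIK3 and BRINP1) and 4 below (BEX1, BEX2, STMN2 and VGF), with ELAVL3 overlapping. The UQCRFS1 knockout line had 2 above (ELAVL3 and BEX2) and 4 below (BEX1, STMN2, VGF and GRIK3). Some of these rest on very few counts. STMN2 had 0 counts in either line against 3 in A673, and GRIK3 had 0 in the UQCRFS1 line against 2. BRINP1 had 6 in the CYC1 line against 1, a ratio of 5.64 (95% counting interval 0.684 to 259). For these 3 genes the order of libraries is no evidence of a difference, except GRIK3 in the CYC1 line (23 against 2 counts). Over all genes tested, 37.3% lay above and 37.5% below in the MRPL45 line, 35% and 30.9% in the CYC1 line, and 31% and 28.9% in the UQCRFS1 line. These 3 comparisons share the same A673 libraries.

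VGF shows the spread between the clones. It was 1.01 ± 0.09 in the MRPL45 line, -0.89 ± 0.10 in the CYC1 line and -2.62 ± 0.12 in the UQCRFS1 line, relative to A673 with DMSO. BEX1 had the same order of lines, at 0.76 ± 0.08, -0.49 ± 0.08 and -1.01 ± 0.08. BEX2 did not, at 1.37 ± 0.11 in the MRPL45 line, -1.45 ± 0.13 in the CYC1 line and 0.71 ± 0.11 in the UQCRFS1 line. RBFOX1 was higher in the CYC1 line (2.71 ± 0.38) and SNAP25 was too (0.95 ± 0.14), whereas neither was separated from A673 in the other 2 lines.

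**Figure D3:**
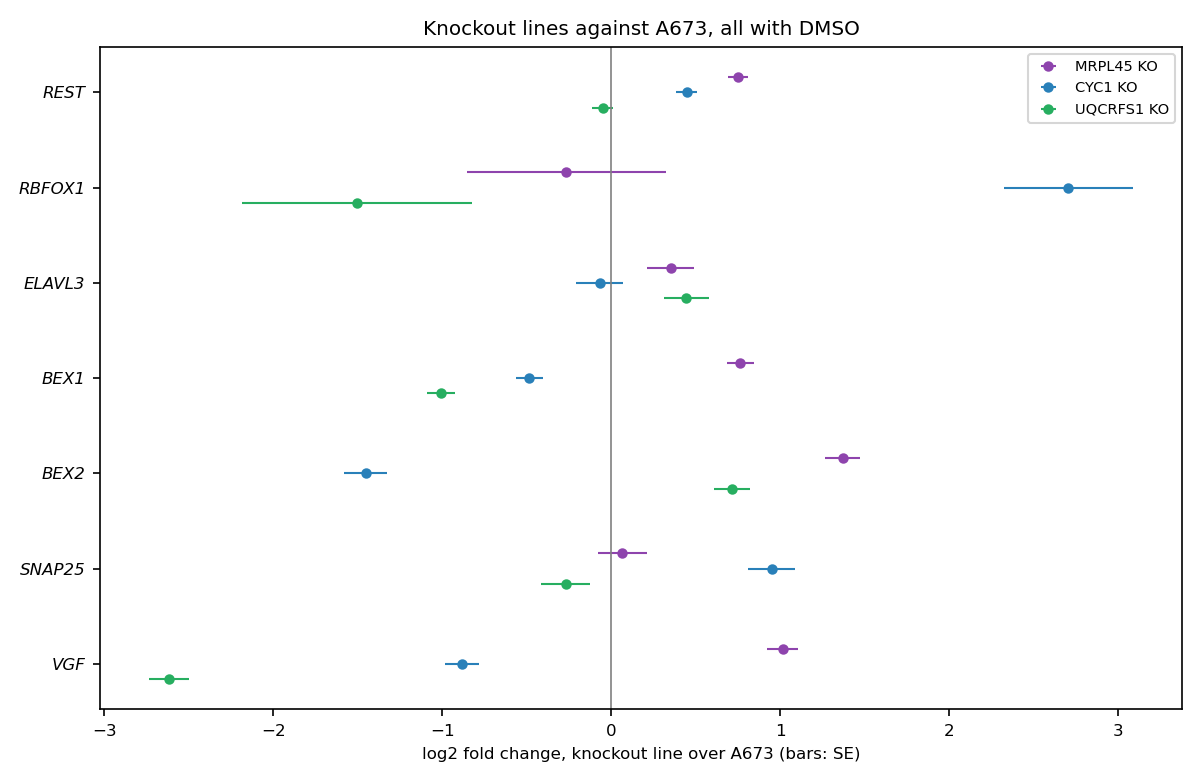
Log2 fold change of each knockout line over A673, all with DMSO (horizontal axis, SE bars), for 7 genes (rows) and 3 lines (colours). VGF runs from -2.62 in the UQCRFS1 knockout line to 1.01 in the MRPL45 knockout line. GRIK3 and BRINP1 are not drawn, since A673 with DMSO held 2 counts and 1 count of them.

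The response of each clone was set against that of A673 by the difference of the 2 log2 fold changes. For VGF it was -2.96 ± 0.12 for the MRPL45 clone, -2.15 ± 0.13 for the CYC1 clone and 1.15 ± 0.15 for the UQCRFS1 clone. REST had -0.69 ± 0.09, -0.53 ± 0.09 and -0.41 ± 0.09 in the same order. The third of these was -0.343 without the first A673 SP-2509 library. For ELAVL3 the differences were -0.87 ± 0.18, -1.72 ± 0.18 and -0.36 ± 0.17. BEX2 had -1.46 ± 0.14 in the MRPL45 line and 0.74 ± 0.16 in the CYC1 line, and BEX1 had -0.91 ± 0.11 in the MRPL45 line, 0.04 ± 0.11 in the CYC1 line and 0.66 ± 0.11 in the UQCRFS1 line. The differences in the MRPL45 line thus ran downward for all of these genes, and those of the other clones depended on the gene. All 3 comparisons share the A673 libraries.

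The genes most like each of the 9 that passed the filter were sought over the 8 groups among 11392 genes by the root mean square difference of centred group means (log2 CPM). REST came closest to WDFY1 (0.0535) and CNNM2 (0.0642), against a spread of REST itself of 0.306. VGF came closest to LYPD1 (0.579) and ALPK2 (0.603), against a spread of 1.71. RBFOX1 was nearest to RP11-420N3.2 (0.362) and to KRTAP4-7 (0.567), against 2.5, though counts of the KRTAP4 copies are uncertain. The nearest of BEX1 were ALK (0.211) and SLU7 (0.213), and those of BEX2 were CXADR (0.326) and DTNA (0.421). For ELAVL3 they were BCL2 (0.217) and MET (0.268), and for SNAP25 they were TBC1D1 (0.128) and RAB31 (0.129). GRIK3 was nearest to NPTX2 (0.597) and ZNF667 (0.864), and BRINP1 to AHNAK2 (0.644) and HSPB8 (0.748). Between GRIK3 and BRINP1 the distance was 1.09, the smallest of GRIK3 to any of the other 8, while REST was nearest to SNAP25 (0.364) within the set. These values describe 8 group means that share libraries and scaling.

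The corepressors of REST form the next layer. Their list and those that follow were chosen with earlier results of these data known. Of 27 listed partners and regulators, 26 were tested, and the neuronal splicing factor SRRM4, which antagonises REST, was below the filter. With SP-2509 in A673, 11 rose and 10 fell (quasi-likelihood test of edgeR with Benjamini-Hochberg adjustment, adjusted p under 0.05), with a median log2 fold change of 0.02. Over all 21633 genes 58% were called there, 31.6% higher and 26.4% lower, and the median was -0.03. With upper-quartile scaling, which lowers the median of all genes in A673 to -0.21, the split of this list was 8 and 13. The counts were 4 and 5 in the MRPL45 knockout line (18.5% of all genes called, 10.4% higher and 8.09% lower), 3 and 8 in the CYC1 knockout line (33.4%, 18.7% and 14.7%) and 8 and 11 in the UQCRFS1 knockout line (54.7%, 29.6% and 25.1%). Upper-quartile scaling gave 3 and 6 in the MRPL45 line, where RLE scaling gave 5 and 4, and 5 and 15 in the UQCRFS1 line. Leaving out 1 library left 4 calls in the MRPL45 line without its first or its second DMSO library or its first SP-2509 library, and 1 call without its second SP-2509 library. In the CYC1 line 7 were left without its second SP-2509 library.

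KDM1A, the gene of the enzyme that SP-2509 inhibits, had log2 fold changes from -0.02 to 0.08 in the 4 lines. Each was within 2 SE of zero, and none passed the test in the main fit. With upper-quartile scaling KDM1A was called lower in the UQCRFS1 line (-0.122), where that scaling gave a median of -0.136 over all genes. RCOR2 fell in every line. Its libraries stood at 2.12 and 2.13 CPM with SP-2509 in A673, against 11.19 and 12.51 CPM with DMSO (-2.48 ± 0.14, edgeR adjusted p = 2.2e-13). The change was -2.07 ± 0.14 in the UQCRFS1 line, -1.46 ± 0.14 in the CYC1 line and -0.64 ± 0.19 in the MRPL45 line. In the MRPL45 line the call of RCOR2 was lost without its first DMSO library (-0.44) or either SP-2509 library (-0.69 and -0.54), by DESeq2 (-0.62) and in a fit of that line alone (-0.64). RCOR1 rose in A673, at 229 and 234 CPM with SP-2509 against 158 and 175 CPM with DMSO (0.47 ± 0.06), and in the MRPL45 line (0.24 ± 0.06), and had -0.11 ± 0.06 in the CYC1 line and 0.04 ± 0.06 in the UQCRFS1 line. RCOR3 had 0.21 ± 0.07 in A673, called there but not with upper-quartile scaling (0.03), with the stricter filter (0.06), in a fit of A673 alone (0.155) or without the second library of A673 with DMSO (0.15) or with SP-2509 (0.14). It had -0.15 ± 0.07 in both the MRPL45 and the CYC1 line and -0.01 ± 0.07 in the UQCRFS1 line, none of them called, though the CYC1 value was called with upper-quartile scaling (-0.183), the stricter filter (-0.19), a fit of that line alone (-0.177) and without either A673 DMSO library or the second MRPL45 DMSO library (-0.174 each).

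Among the deacetylases HDAC1 fell in A673 (-0.65 ± 0.06), the UQCRFS1 line (-0.60 ± 0.06) and the CYC1 line (-0.33 ± 0.06), and had -0.11 ± 0.06 in the MRPL45 line. HDAC2 rose in A673 (0.39 ± 0.06), the UQCRFS1 line (0.30 ± 0.06) and the CYC1 line (0.19 ± 0.06), and had 0.11 ± 0.06 in the MRPL45 line. The CYC1 call was lost with RLE scaling (0.166), without a filter (0.16) and without either A673 SP-2509 library or any 1 of the 4 CYC1 libraries (0.159 to 0.196). The MRPL45 value was called without the second MRPL45 DMSO library (0.228). HMG20B, a subunit of the CoREST complex, fell in A673 (-1.46 ± 0.09), the UQCRFS1 line (-1.42 ± 0.09), the CYC1 line (-0.77 ± 0.09) and the MRPL45 line (-0.27 ± 0.09, edgeR adjusted p = 0.0326). The last call was not checked under other settings. ZMYM3, another subunit of complexes with LSD1, fell in A673 (-0.68 ± 0.06), the UQCRFS1 line (-0.79 ± 0.06), the CYC1 line (-0.41 ± 0.06) and the MRPL45 line (-0.26 ± 0.06). The histone H3K4 demethylase KDM5C rose in A673 (0.79 ± 0.07), the UQCRFS1 line (0.78 ± 0.07), the CYC1 line (0.305 ± 0.075) and the MRPL45 line (0.243 ± 0.075). Its calls in the CYC1 and MRPL45 lines were lost on leaving out single libraries, with 0.223 without the second CYC1 SP-2509 library. ZNF217 (0.71 ± 0.06), a zinc finger protein found with CoREST, and the chromatin remodeller SMARCA4 (0.45 ± 0.07) rose in A673. Both rose in the UQCRFS1 line too (0.38 ± 0.06 for ZNF217 and 0.49 ± 0.07 for SMARCA4). ZNF217 was called higher in the MRPL45 line only at the edge of the threshold (0.165 ± 0.058, edgeR adjusted p = 0.0495), a call not checked under other settings. The deubiquitinase USP15 rose in the UQCRFS1 line (0.52 ± 0.06), in A673 (0.38 ± 0.06) and in the CYC1 line (0.32 ± 0.06).

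Against A673 with DMSO, 7 corepressor genes were higher and 11 lower in the MRPL45 knockout line (57.8% of all genes called, 28.9% higher and 29% lower), 8 and 7 in the CYC1 line (37.6%, 21.4% and 16.2%), and 7 and 3 in the UQCRFS1 line (30.8%, 15.8% and 15%). The split was 9 and 9 in the MRPL45 line and 3 and 7 in the CYC1 line with upper-quartile scaling. In the CYC1 line 9 calls were left without the first A673 DMSO library or the first CYC1 DMSO library and 6 without the second CYC1 DMSO library, and in the UQCRFS1 line 6 were left without its second DMSO library. KDM1A was lower in the MRPL45 line, at 171.0 and 174.5 CPM against 321.4 and 342.6 CPM in A673 (-0.94 ± 0.06, edgeR adjusted p = 4.47e-13), and in the CYC1 line, at 222.0 and 225.2 CPM (-0.57 ± 0.06). In the UQCRFS1 line KDM1A was called higher (0.15 ± 0.06), a call lost with RLE scaling (0.144), without a filter (0.138), in a fit of the groups compared alone (0.146) and on leaving out single libraries, with 0.097 without the first A673 DMSO library. RCOR2 was lower in the MRPL45 line as well, at 1.49 and 1.88 CPM against 11.19 and 12.51 CPM in A673 (-2.79 ± 0.15), and in the CYC1 line (-0.62 ± 0.13). RCOR1 was higher in the MRPL45 line (0.60 ± 0.06), as was BTRC (0.67 ± 0.06), a ubiquitin ligase subunit that targets REST for degradation. HDAC1 was lower there (-0.71 ± 0.06). In the UQCRFS1 line SIN3B (0.45 ± 0.06) and HMG20B (0.51 ± 0.09) were higher, and GSE1 (-0.47 ± 0.07) and USP7 (-0.39 ± 0.06) lower.

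Further RE1 target genes were described in the same way. Of 47 listed genes, 46 were in the tables used, 41 were tested, GRIN1, CALB1, TH, DBH and OPRM1 were below the filter, and CRH was not analysed here. With SP-2509 in A673, 16 rose and 11 fell, with a median log2 fold change of 0.42, against -0.03 over all genes. The UQCRFS1 knockout line had 17 up and 8 down (median 0.66) and the CYC1 knockout line 14 up and 5 down (median 0.35). In the MRPL45 knockout line 7 rose and 0 fell, with a median of 0.09. There 2 genes were lower at an unadjusted p under 0.05 in the edgeR test, and DESeq2 called 0 lower. Called shares of the list were 65.9% in A673, 61% in the UQCRFS1 line, 46.3% in the CYC1 line and 17.1% in the MRPL45 line, beside 58%, 54.7%, 33.4% and 18.5% of all genes. In the MRPL45 line 4 calls were left without its first DMSO library and 3 without its first SP-2509 library, and in the CYC1 line 11 were left without its second DMSO or its second SP-2509 library.

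BDNF, a neurotrophin, and SYT4, a synaptotagmin of secretory vesicles, passed the test upward in all 4 lines, and so did INA, a neuronal intermediate filament, and SCG2, a secretogranin. BDNF had 1.54 and 1.96 CPM with SP-2509 in A673, against 0.0650 and 0.154 CPM with DMSO (4.02 ± 0.32, edgeR adjusted p = 1.04e-10), and SYT4 had 3.97 and 4.48 CPM, against 0.409 and 0.411 CPM (3.36 ± 0.23, adjusted p = 4.05e-12 in the same edgeR test). In the UQCRFS1 line the changes were 3.33 ± 0.47 for BDNF and 2.79 ± 0.24 for SYT4, in the CYC1 line 0.81 ± 0.25 and 1.01 ± 0.29, and in the MRPL45 line 1.04 ± 0.19 and 1.07 ± 0.27. The strand setting of the counting is not given in the sources used here, so BDNF reads cannot be told apart from those of its antisense gene. INA rose by 1.92 ± 0.07 in A673, 1.87 ± 0.07 in the UQCRFS1 line, 1.88 ± 0.08 in the CYC1 line and 0.93 ± 0.07 in the MRPL45 line. BDNF, SYT4, INA and SCG2 were singled out after their values were seen.

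GAD1, which makes the transmitter GABA, rose in A673 (4.73 ± 0.48, 1.48 and 1.77 CPM against 0.0217 and 0.102 CPM) and in the UQCRFS1 line (4.94 ± 0.51). The stathmin STMN4 rose in A673 (3.58 ± 0.44) and, at under 0.5 CPM, in the UQCRFS1 line (2.56 ± 0.47). NEFM, a neurofilament subunit, rose in the CYC1 line (1.18 ± 0.17). Others went the other way. CHAT, the enzyme that makes acetylcholine, fell in A673 (-2.02 ± 0.41), and so did its vesicular transporter SLC18A3 (-1.69 ± 0.27), which fell in the CYC1 line too (-1.03 ± 0.23). UNC13A, a vesicle priming factor (-2.00 ± 0.20), and SLC12A5, a chloride transporter of neurons (-1.85 ± 0.28), fell in A673, and in the UQCRFS1 line SLC12A5 (-1.69 ± 0.24) and CPLX1, a complexin (-1.39 ± 0.24), fell. L1CAM, an adhesion molecule, fell in the CYC1 line (-1.64 ± 0.09). Falls and rises thus stood side by side among listed targets of the same repressor.

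The 9 genes found with the exact RE1 core in a transcript also split. In A673, BDNF, SYT4, SCN3B (1.46 ± 0.31) and POU4F3 (1.49 ± 0.60) rose and SLC12A5 and NPPA (-2.19 ± 0.60) fell. CHRNB2 had -0.17 ± 0.18 and did not pass the test there, though it rose in the CYC1 line (0.81 ± 0.22) and the UQCRFS1 line (0.89 ± 0.17). CDK5R2 did not pass the test in A673, where 1 of its groups held 3 counts, and GRIN1 was below the filter. POU4F3 and NPPA were below 0.5 CPM in these libraries. The presence of the core thus went with changes in both directions.

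**Figure D4:**
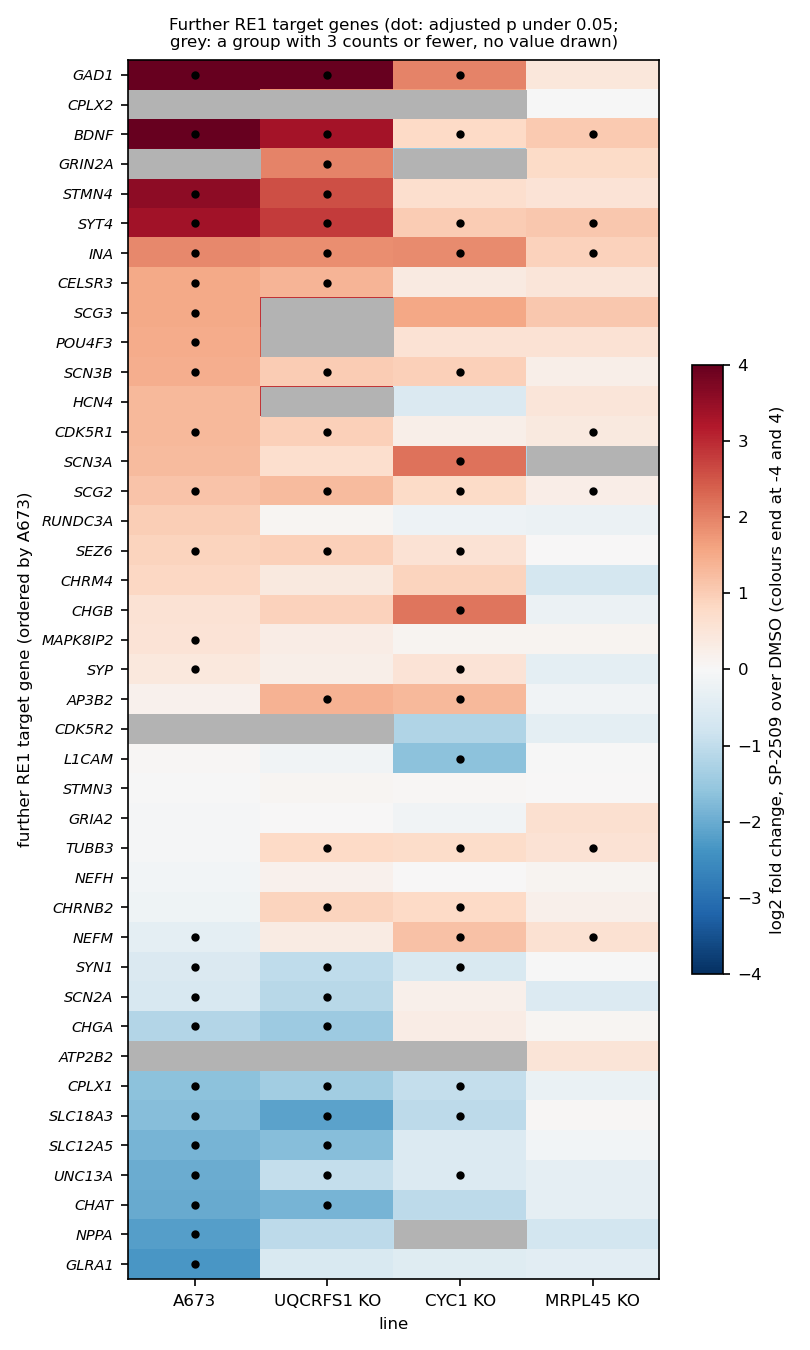
Colour gives the log2 fold change of SP-2509 over DMSO for 41 further RE1 target genes (rows, ordered by A673) in the 4 lines (columns), with a dot where the adjusted p was under 0.05 and grey where a group held 3 counts or fewer. Over the 41 genes, 16 were called higher in A673 and 17 in the UQCRFS1 knockout line, and in the MRPL45 knockout line 7 were called higher and none lower. These counts include any called gene whose cell is grey, where no dot is drawn.

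Against A673 with DMSO, 18 of the RE1 target genes were higher and 12 lower in the MRPL45 knockout line (57.8% of all genes called), 4 and 15 in the CYC1 line (37.6%), and 3 and 8 in the UQCRFS1 line (30.8%). The last count of 11 was 7 without the first A673 DMSO library, either A673 SP-2509 library or the second UQCRFS1 DMSO library, and 6 without the first UQCRFS1 DMSO library. BDNF was higher in the MRPL45 line (4.69 ± 0.31), where it stood at 2.77 and 2.84 CPM against 0.0650 and 0.154 CPM in A673. CPLX2, a complexin, had 143 counts in the MRPL45 line against 1 in A673, a ratio of 148 (95% counting interval 26.1 to 5880). NEFM was lower in the MRPL45 line (-2.47 ± 0.16) and in the CYC1 line (-2.77 ± 0.16), and CPLX1 was lower in the MRPL45 line (-2.16 ± 0.28). The CYC1 line also had less AP3B2 (-3.66 ± 0.18), a neuronal adaptor subunit, and more L1CAM (4.08 ± 0.11). In the UQCRFS1 line NEFH (-3.29 ± 0.18) and UNC13A (-1.59 ± 0.19) were lower and INA (0.43 ± 0.07) higher.

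The test of the difference in response found 9 RE1 target genes higher and 13 lower in the MRPL45 knockout line than in A673, 7 and 9 in the CYC1 line, and 5 and 0 in the UQCRFS1 line. Over all genes 38.7% were called in the MRPL45 line (14.5% higher, 24.2% lower), 33.9% in the CYC1 line (12.8% and 21%) and 10.7% in the UQCRFS1 line (3.02% and 7.68%). For the 0 in the UQCRFS1 line, 2 were lower at an unadjusted p under 0.05 in the edgeR test, and DESeq2 called 0. In the UQCRFS1 line 3 were left without the second library of A673 with SP-2509 or of either UQCRFS1 group. For the corepressor list the counts were 6 and 10, 5 and 7, and 0 and 3, with 9 and 4 in the MRPL45 line and 8 and 4 in the CYC1 line with upper-quartile scaling. The 0 of this list was also 0 at an unadjusted p under 0.05 and by DESeq2. In the MRPL45 line 9 were left without the first A673 SP-2509 library. The 3 sets share the A673 libraries.

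Relatives of the 10 genes in the same families were listed as well. Of 21 listed, 20 were in the tables used and 17 were tested, with ELAVL4, BEX5 and BRINP3 below the filter and ELAVL2 not analysed here. With SP-2509, 7 rose and 1 fell in A673, 1 and 1 in the MRPL45 knockout line, 4 and 1 in the CYC1 line and 3 and 1 in the UQCRFS1 line, with median log2 fold changes of 0.36, -0.02, 0.06 and 0.07. Called shares of the list were 47.1%, 11.8%, 29.4% and 23.5% in that order, beside 58%, 18.5%, 33.4% and 54.7% of all genes. With upper-quartile scaling these splits were 5 and 5 in A673, 2 and 1 in the CYC1 line (also with RLE scaling) and 2 and 3 in the UQCRFS1 line. In the CYC1 line 2 or 3 calls were left without any 1 of the 4 A673 libraries, either CYC1 DMSO library or the second CYC1 SP-2509 library. In the UQCRFS1 line 2 were left without its second DMSO library, and in the MRPL45 line 1 without its first DMSO or either SP-2509 library.

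SNAP23, the SNAP25 relative of most tissues, rose in A673 (0.73 ± 0.15), at 91.6 and 102.5 CPM against 52.7 and 64.0 CPM. It rose in the CYC1 line (0.636 ± 0.145) and the UQCRFS1 line (0.486 ± 0.146) too. Both of these calls were lost on leaving out single libraries, and the UQCRFS1 call also with upper-quartile scaling (0.346). SNAP29 rose by 0.50 ± 0.07 in A673. STMN1, the general stathmin, rose by 0.48 ± 0.07 in A673, 0.46 ± 0.07 in the UQCRFS1 line and 0.18 ± 0.07 in the CYC1 line. The CYC1 call was at the edge of the threshold (edgeR adjusted p = 0.0489) and was not checked under other settings. STMN4 belongs to this list too. BEX3, unlike BEX1 and BEX2, fell in A673 (-0.21 ± 0.06), in the CYC1 line (-0.26 ± 0.06) and in the UQCRFS1 line (-0.175 ± 0.062). The last of these calls was lost on leaving out single libraries. RBFOX2 rose by 0.28 ± 0.06 in both A673 and the MRPL45 line, and RBFOX3, the NeuN antigen of mature neurons, rose in the CYC1 line (1.67 ± 0.31), where it had 1.11 and 1.28 CPM against 0.324 and 0.428 CPM. Against A673 with DMSO, 7 were higher and 5 lower in the MRPL45 line, 5 and 1 in the CYC1 line (4 and 3 with upper-quartile scaling) and 6 and 1 in the UQCRFS1 line. Called shares of the list were 70.6%, 35.3% and 41.2% in that order, beside 57.8%, 37.6% and 30.8% of all genes. The CYC1 count of 6 was 2 without the first CYC1 DMSO library and 3 without the second, and the UQCRFS1 count of 7 was 4 without the second UQCRFS1 DMSO library. GRIK5, a kainate receptor subunit that pairs with GRIK3, was higher in the MRPL45 line, at 6.37 and 6.56 CPM against 0.671 and 0.896 CPM in A673 (3.05 ± 0.25), and BEX4 was higher in the MRPL45 line (1.54 ± 0.13) and the UQCRFS1 line (0.88 ± 0.13).

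Neuronal fate and general neuronal genes were the last list, with 20 listed, 18 in the tables used and 14 tested. The fate factors NEUROG2 and ATOH1 and the kinase CAMK2A were among those below the filter, and NEUROD1 and NEUROG1 were not analysed here. With SP-2509, 5 rose and 3 fell in A673, 3 and 0 in the MRPL45 knockout line, 7 and 1 in the CYC1 line and 5 and 3 in the UQCRFS1 line. The medians were 0.13, 0.04, 0.15 and 0.09. Called shares of the list were 57.1%, 21.4%, 57.1% and 57.1%, beside 58%, 18.5%, 33.4% and 54.7% of all genes. For the 0 in the MRPL45 line, 2 were lower at an unadjusted p under 0.05 in the edgeR test, and DESeq2 called 0. With upper-quartile scaling the splits were 3 and 4, 2 and 1, 6 and 2 (also with RLE scaling), and 3 and 4 in the same order. The A673 count of 8 was 5 without the first library of either A673 group. In the MRPL45 line the count of 3 was 1 without its first DMSO library and 5 without its second SP-2509 library.

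SYT1, the calcium sensor of synaptic vesicles, rose in all 4 lines, by 1.23 ± 0.06 in A673 (243.9 and 258.5 CPM against 102.8 and 111.0 CPM), 1.28 ± 0.06 in the UQCRFS1 line, 0.62 ± 0.06 in the CYC1 line and 0.32 ± 0.06 in the MRPL45 line. The POU factor POU3F2 rose in A673 (1.10 ± 0.09), the UQCRFS1 line (1.05 ± 0.09) and the CYC1 line (0.58 ± 0.09). MAP2, a dendritic microtubule protein, rose in A673 (1.19 ± 0.14), the UQCRFS1 line (0.55 ± 0.13) and the CYC1 line (0.36 ± 0.14). Its CYC1 call was at the edge of the threshold (edgeR adjusted p = 0.0468) and was not checked under other settings. MAPT, which encodes tau, fell in A673 (-1.35 ± 0.08), the UQCRFS1 line (-1.71 ± 0.10) and the CYC1 line (-1.06 ± 0.08), and GAP43, a growth cone protein, fell in A673 (-1.09 ± 0.08) and the UQCRFS1 line (-0.26 ± 0.08) and rose in the CYC1 line (0.50 ± 0.11) and the MRPL45 line (0.27 ± 0.09). Against A673 with DMSO, 3 were higher and 6 lower in the MRPL45 line and 4 and 4 in each of the other 2. Called shares of the list were 64.3% in the MRPL45 line, 57.1% in the CYC1 line and 57.1% in the UQCRFS1 line, beside 57.8%, 37.6% and 30.8% of all genes. GAP43 was lower in the MRPL45 line (-1.89 ± 0.09), the CYC1 line (-3.83 ± 0.10) and the UQCRFS1 line (-1.14 ± 0.08). ENO2, a neuronal enolase, was lower in the MRPL45 line (-2.33 ± 0.08) and the CYC1 line (-2.47 ± 0.08) and higher in the UQCRFS1 line (0.67 ± 0.07), and NCAM1, a neural adhesion molecule, was lower in the CYC1 line (-4.46 ± 0.24) and the UQCRFS1 line (-1.79 ± 0.18). NRCAM was higher in the CYC1 line (1.01 ± 0.06).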

How the data were processed

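RNA-seq counts per gene of 16 libraries, 2 in each of 8 groups, were taken as the authors deposited them in 10 tables joined by gene ID. The 24 columns repeated between tables were identical. STAR 2.5.2b, build hg19, FastQC, MultiQC, Trim Galore and DESeq2 are named in the submitters' processing notes. For the counting program and strand setting, the sources used here state nothing. Rows without a gene symbol (2265) held 2.405 to 8.588% of counts and were treated as genes with an ID only. Columns of other samples numbered 0.

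Counts were fitted with edgeR 4.0.16 in R 4.3.3 (limma 3.58.1) over all 16 libraries, with 8 group means, TMM scaling, filterByExpr by group, robust quasi-likelihood and Benjamini-Hochberg adjustment per comparison. The threshold was an adjusted p under 0.05, 21633 genes were tested, and 8 residual degrees of freedom were left. SE was computed as the size of the log2 fold change over the root of its F statistic. The script was tested on simulated data. Intervals (95%, exact) and floors (3 counts over a group) cover counting error only.

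The 10 genes and the gene lists were chosen with earlier results of these data known. From each list, the named genes were those called, not overlapping between groups and at 1 CPM or more in the higher group: the 4 largest changes per direction for SP-2509 in A673 and the 2 largest elsewhere. KDM1A, RCOR1, RCOR2, RCOR3, HDAC1 and HDAC2 were always named, and genes with the RE1 core in a transcript were named for it. Like genes had a highest group mean of at least 5 CPM. Alternatives were RLE and upper-quartile scaling, other filters, DESeq2 1.42.0, a replicate block, a fit of the groups compared alone and leaving out each library. For single list genes they were run only in the comparisons that named the gene by the rule above, and for the genes always named. Calls of list genes in further comparisons were not checked under them. No 2 libraries of a group agreed within sampling noise (lowest chi-square per degree of freedom 23.19).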

Additional observations from a re-analysis of the deposited data

Results flagged for a closer look

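The results listed here stood out because the response to SP-2509 in a knockout line differed from that in A673 in the edgeR interaction test. Each value is the log2 response in the knockout line minus that in A673, and all 3 comparisons share the A673 libraries. In the MRPL45 knockout line the corepressor genes had 1.835 for RCOR2, 1.184 for HMG20B, 0.534 for HDAC1, -0.55 for KDM5C, -0.545 for ZNF217, -0.363 for RCOR3, -0.28 for HDAC2 and -0.236 for RCOR1. With upper-quartile scaling RCOR3 (-0.21), HDAC2 (-0.124) and RCOR1 (-0.082) were not called. The stricter filter (-0.145 for HDAC2, -0.102 for RCOR1) and a fit of the groups compared alone (-0.253 and -0.208) lost both calls too, and fitting without a filter lost that of RCOR1 (-0.216). Single libraries also decided them: RCOR1 had -0.112 without the first A673 DMSO library, HDAC2 had -0.124 without the second MRPL45 DMSO library, and RCOR3 was not called without the second A673 SP-2509 library (-0.284). In the CYC1 knockout line the values were 1.017 for RCOR2, 0.689 for HMG20B, 0.323 for HDAC1, -0.605 for ZNF217, -0.579 for RCOR1 and -0.363 for RCOR3, of which RCOR3 was not called with upper-quartile scaling (-0.211). The UQCRFS1 knockout line had -0.433 for RCOR1 and -0.422 for SIN3A.

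Among RE1 target genes the MRPL45 knockout line had -4.287 for GAD1, 1.729 for SLC12A5 and 1.726 for SLC18A3. CPLX2 had -4.117 there, a fitted value that depends on a single count in A673 with DMSO. In the CYC1 knockout line BDNF had -3.21, STMN4 -2.899, NEFM 1.567 and UNC13A 1.44. GAD1, BDNF and STMN4 were close to undetected in A673 with DMSO, so the sizes of their differences are imprecise. In the UQCRFS1 knockout line AP3B2 had 1.215 and CHRNB2 1.069.

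Of the general neuronal genes, the MRPL45 knockout line had 1.36 for GAP43, 1.163 for MAPT, -1.246 for MAP2 and -0.916 for SYT1. The CYC1 knockout line had 1.594 for GAP43, 1.242 for NCAM1, -0.828 for MAP2 and -0.615 for SYT1. The UQCRFS1 knockout line had 0.834 for GAP43, -0.637 for MAP2 and -0.544 for ENO2. The calls of NCAM1 in the CYC1 line and of MAP2 in the UQCRFS1 line were lost under some settings.

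SNAP25 stood out because its libraries moved in opposite directions between lines, with 0.575 in A673 and 0.369 in the UQCRFS1 knockout line against -0.311 in the CYC1 knockout line. As SNAP25 was picked on these values, the difference was not tested.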

How the results depend on the processing

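Of 37 counts of called list genes, 0 moved by over 1.5 times with the replicate block, 1 with RLE scaling, 1 with upper-quartile scaling, 3 without a filter, 4 in fits of the groups compared alone, 5 with the stricter filter and 5 with DESeq2. For RE1 target genes DESeq2 called 12 with SP-2509 in the CYC1 line, 13 and 3 for the response differences of the MRPL45 and UQCRFS1 lines, and 6 for the UQCRFS1 line against A673, where fitting without a filter gave 7. The stricter filter, which left 21 of these genes, gave 13 in A673 and 15 in the UQCRFS1 line with SP-2509, 16 for the MRPL45 line against A673 and 14 for its response difference. A fit of the groups compared alone gave 2 RE1 target genes and 5 corepressors with SP-2509 in the MRPL45 line, and 9 and 5 corepressors for the CYC1 and UQCRFS1 lines against A673, where no filter gave 9 and 6. Among relatives, RLE, upper-quartile scaling and the stricter filter each gave 3 with SP-2509 in the CYC1 line, and DESeq2 gave 1 in the MRPL45 line. The cause was not tested, beyond the fewer genes under the stricter filter.

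Leaving out 1 library gave ranges of 11 to 20 (CYC1 line with SP-2509), 3 to 7 (MRPL45 line), 6 to 11 (UQCRFS1 line against A673) and 3 to 5 (its response difference) for RE1 target genes. For corepressors they were 7 to 12 (CYC1 line with SP-2509), 1 to 10 (MRPL45 line), 6 to 14 (CYC1 line against A673), 6 to 10 (UQCRFS1 line against A673) and 9 to 16 (response difference of the MRPL45 line). For relatives they were 2 to 5, 1 to 2 and 2 to 4 (CYC1, MRPL45 and UQCRFS1 lines with SP-2509), and 2 to 7 and 4 to 7 (CYC1 and UQCRFS1 lines against A673). For general neuronal genes they were 5 to 8 in A673 and 1 to 5 in the MRPL45 line with SP-2509. KDM1A in the UQCRFS1 line with SP-2509 was not called in the main fit (0.014) and was called lower with upper-quartile scaling (-0.122). That scaling moved the median of all genes to -0.208 with SP-2509 in A673 and -0.136 in the UQCRFS1 line, and to 0.119 and 0.169 for the response differences of the MRPL45 and CYC1 lines.

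Correlations of the deviations of same-numbered libraries ran from 0.0341 to 0.234 and passed 0.1 in 26 of 28 pairs of groups, not in all, and no label ties the numbers to a shared culture or day, so the libraries were not treated as paired. With the replicate block, REST had 0.151 with SP-2509 in the CYC1 line, as it had without the block. SNAP25 had -0.308 there with the block and -0.311 without it. Both genes were picked with earlier results of these data known, so no test is read from these values. GRIK3, BRINP1 and STMN2 outside the MRPL45 line rest on few counts, which limits their precision.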
